A study of Homo sapiens with 4 samples.

Results

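The MAPK feedback regulators described here were 10 genes of the dual-specificity phosphatase (DUSP), Sprouty (SPRY) and SPRED families, namely *DUSP1*, *DUSP4*, *DUSP5*, *DUSP6*, *DUSP10*, *SPRY1*, *SPRY2*, *SPRY4*, *SPRED1*, and *SPRED2*. They were chosen by name for their role in the pathway, with earlier results of these data known. All 10 were found among the 18449 gene symbols of the count table. RNA was sequenced from BT-16 and CHLA-266, established cell lines of the MYC subgroup of atypical teratoid/rhabdoid tumor (AT/RT), a malignant brain tumor of early childhood. Untreated cells were compared with cells treated with 1 µM doxorubicin, 5 µM etoposide, and 1 µM vincristine on consecutive days, and per the methods the treated cells were left to regrow for some weeks before harvest. Both conditions shared the same medium with fetal bovine serum, which itself holds growth factors. Each cell line gave 1 library per condition, so that each condition had 2 libraries with 4 in all. The p-values below therefore rest on 2 cell lines, each grown alone in culture. Without the cell line in the model, they measure the spread between the lines within a condition. With the cell line as a block, they measure how much the difference between conditions varied between the lines.

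Signals from receptor tyrosine kinases pass through RAS, RAF, and MEK to the kinase ERK, which switches on transcription of genes that then dampen the same pathway. DUSPs take phosphate groups off mitogen-activated protein kinases (MAPKs): DUSP6 acts on ERK in the cytoplasm, DUSP1, DUSP4, and DUSP5 act in the nucleus, and DUSP10 acts mainly on the stress kinases p38 and JNK. Sprouty and SPRED proteins act upstream, near the receptor and RAS, and SPRED proteins bring neurofibromin to the membrane to turn RAS off. RNA levels of *DUSP6*, *SPRY2*, and *SPRY4* are commonly used as a readout of ERK activity, which was not itself measured here.

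After treatment, *DUSP4* rose 5.88-fold and *SPRY4* 2.27-fold, *SPRED2* and *SPRED1* rose by 1.00 and 0.54 on the log2 scale, and *SPRY2* fell to 0.700 of its untreated level. Per length of exon, *SPRY4* took the place of *SPRY2* as the most abundant of the 10 genes in both cell lines, and *DUSP4* went from below to above *DUSP6*. In the edgeR quasi-likelihood test with Benjamini-Hochberg adjustment over 18066 genes, 4 of the 10 genes were upregulated and 1 was downregulated at an adjusted p-value under 0.05, while 5 did not pass the threshold. Of all genes tested, 16.1% passed upward and 19.1% downward. Under 9 other models, scalings, and filters, *SPRY2* passed in 5, with log2 fold changes from -0.51 to -0.17. *DUSP4*, *SPRY4*, *SPRED1*, and *SPRED2* passed in all 9. For the 10 genes the median log2 fold change was 0.80, against 0.24 for all genes tested.

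The untreated libraries held 75087193 and 66192504 counts in BT-16 and CHLA-266, and the treated ones 51489712 and 49849257. RNA of *SMARCB1*, the gene whose loss defines most AT/RT, was counted 827 to 1394 times per library, which does not show whether the transcript was intact. *MYC* fell with a log2 fold change of -0.59 (adjusted p = 0.0289 in edgeR), and *SMARCA4* fell with -0.56 (0.0498). Neither passed the threshold with upper-quartile factors, with library totals, with at least 10 counts in every library, or with limma on VST values. All 4 markers of dividing cells fell (*MKI67*, *TOP2A*, *CCNB1*, and *CDK1*), and their summed level was 3144 and 3170 CPM (counts scaled to library size) in untreated and 94.0 and 83.6 CPM in treated BT-16 and CHLA-266 cells. Of 9 markers of blood, vessel, and liver cells, 3 rose (among them *VWF* and *CDH5*) and 0 fell in edgeR, with or without the cell line as a block in the model. At an unadjusted p-value under 0.05, 6 rose without the block and 3 with it, and 0 fell in either fit. The summed level of the 9 markers was 5.12 CPM before and 14.6 CPM after treatment in BT-16 and 1.41 and 9.26 CPM in CHLA-266. *CD3E*, *HBB*, and *ALB* were at 0 in both untreated libraries. More olfactory receptor genes, which these cells have no known use for, were detected after treatment (300 of 388 in BT-16 and 214 in CHLA-266) than before (124 and 92). Their 95th percentile was at most 4.10 counts per kilobase of exon in untreated and at most 26.2 in treated libraries, and every feedback gene except *DUSP10* lay above it in all 4 libraries. The part of these differences in the results below was not tested, and in bulk RNA fewer cells with a transcript and less of it per cell cannot be told apart.

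**Figure D1:**
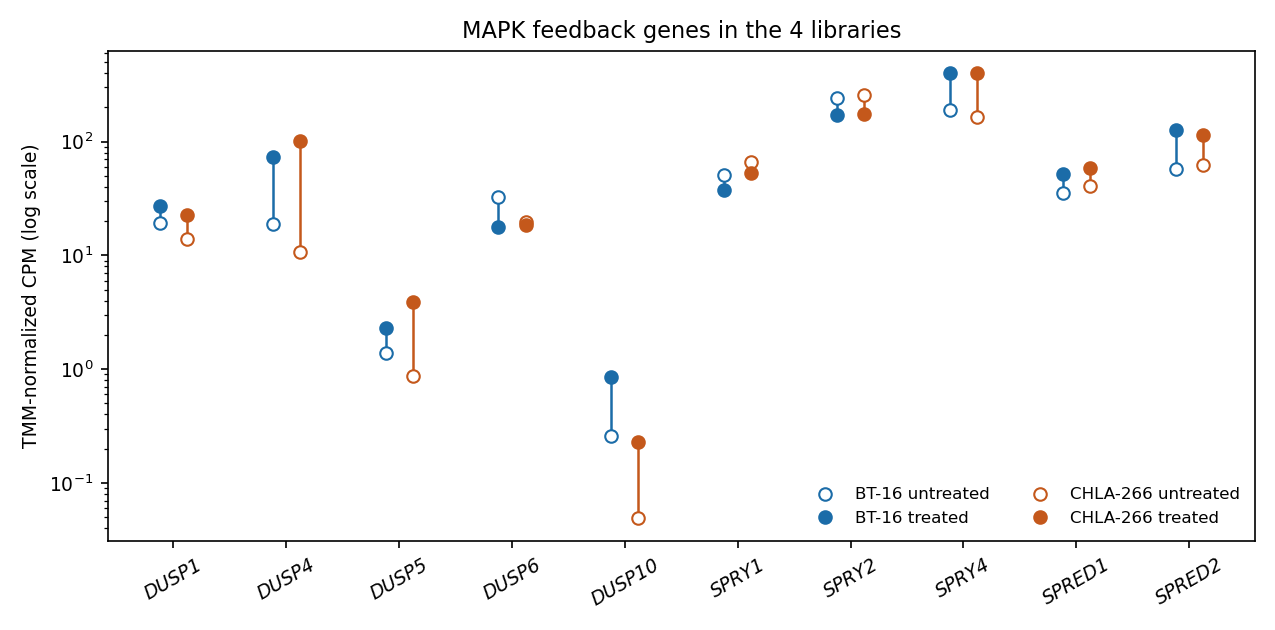
TMM-normalized CPM of the 10 feedback genes on a log axis, with open circles for untreated and filled circles for treated libraries and a line joining the libraries of each cell line. *DUSP4*, *SPRY4*, and *SPRED2* stand higher in both treated libraries and *SPRY2* lower; heights are to be compared within a gene, since CPM is not corrected for gene length.

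The letters upstream of 3 of the genes are given here, from RefSeq on GRCh38.p14. They show a gene that rose (*SPRED1*), a gene that fell (*SPRY2*), and the gene with the most types of motif among those examined (*DUSP1*). RefSeq windows were examined for 8 of the 10 genes. *DUSP5* had no entry, and *DUSP4* was left out of the search. Those shown are, among the genes examined, the called or block-called ones whose 250 bases upstream of the outermost annotated start hold no GENCODE exon. They are written 5′ to 3′ on the strand of the gene, and capitals mark every match to a searched motif on either strand. The motifs searched were TGANTCA of the AP-1 factors, TGACGTCA or CRE of the CREB factors, CGGAAG of the ETS factors, the CArG box of the serum response factor, CACGTG or E-box of MYC and its relatives, GGGCGG or GC box of the SP factors, GCGTGGGCG of the EGR factors, and TATAAA or TATA motif of the basal machinery. No matches overlapped in the windows shown. The window of *DUSP1* lies at chr5:172771196-172771445 (minus strand), that of *SPRY2* at chr13:80341127-80341376 (minus strand), and that of *SPRED1* at chr15:38252586-38252835 (plus strand).
*DUSP1*: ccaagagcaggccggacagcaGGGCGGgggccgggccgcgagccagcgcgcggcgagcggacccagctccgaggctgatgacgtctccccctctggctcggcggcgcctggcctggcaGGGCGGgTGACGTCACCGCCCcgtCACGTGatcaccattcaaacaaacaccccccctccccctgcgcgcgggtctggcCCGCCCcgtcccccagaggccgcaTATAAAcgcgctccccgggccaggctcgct
*SPRY2*: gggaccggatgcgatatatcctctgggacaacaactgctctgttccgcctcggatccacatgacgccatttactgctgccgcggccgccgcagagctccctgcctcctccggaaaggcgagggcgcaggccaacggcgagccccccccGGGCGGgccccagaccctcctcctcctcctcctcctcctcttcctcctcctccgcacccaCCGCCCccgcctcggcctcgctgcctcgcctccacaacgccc
*SPRED1*: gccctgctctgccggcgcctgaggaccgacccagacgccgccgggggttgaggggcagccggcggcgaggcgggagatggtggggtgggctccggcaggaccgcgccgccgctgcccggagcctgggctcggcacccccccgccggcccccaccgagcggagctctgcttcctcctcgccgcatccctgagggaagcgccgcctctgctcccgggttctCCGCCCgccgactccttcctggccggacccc

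The *DUSP1* window held a CRE at -125 to -118, an E-box at -108 to -103, and a TATA motif at -30 to -25 from the start, along with 4 GC boxes. Of all 35116 upstream windows of this length, 1.65% held the CRE letters, 6.34% the E-box, and 10.7% the TATA motif. The *SPRY2* window held 2 GC boxes and the *SPRED1* window 1, and 42.6% of all windows held this motif. A match describes letters in a window and is no evidence of binding.

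*DUSP4*, a nuclear phosphatase of ERK and JNK (chromosome 8, 29333064 to 29350684, minus strand, hg38), was counted 1309 times in BT-16 before treatment and 4258 times after it, and 655 and 5222 times in CHLA-266. These counts corresponded to 19.0 and 73.7 CPM in BT-16 and to 10.6 and 100 CPM in CHLA-266 after TMM normalization. Both treated libraries thus stood above both untreated ones, and the untreated line with the lower level had the higher level after treatment. Treatment was associated with a log2 fold change of 2.55 (SE 0.29, n = 2 libraries per condition, adjusted p = 0.000407 in edgeR), or 2.32 above the median of all genes. Within BT-16 cells the ratio was 3.88-fold (log2 ratio 1.96, 95% interval 1.87 to 2.05), and within CHLA-266 cells it was 9.44-fold (3.24, 3.12 to 3.36). These Clopper-Pearson intervals cover counting error only and do not overlap, and with 1 library per line and condition a difference in response between the cell lines cannot be tested.

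*DUSP1*, the immediate-early nuclear phosphatase that acts on p38, JNK, and ERK (chromosome 5, 172768096 to 172771195, minus strand), had 19.1 CPM before and 27.0 after treatment in BT-16, against 13.9 and 22.9 CPM in CHLA-266. Both treated libraries were above both untreated ones, with log2 ratios of 0.50 (0.39 to 0.61) and 0.71 (0.59 to 0.84). The log2 fold change of 0.59 (SE 0.23) did not pass the threshold in edgeR (adjusted p = 0.0777), and it did with the cell line as a block (adjusted p = 0.0165), and in 6 of 9 alternatives in all. Without single libraries the value ranged from 0.38 without untreated CHLA-266 cells (adjusted p = 0.344) to 0.84 without untreated BT-16 cells (0.0642), and it passed the threshold in 1 of these 4 fits, without treated CHLA-266 cells (0.72, 0.0339). With that block, 5 of the 10 genes were upregulated and 1 was downregulated, against 17.9% and 23.7% of all genes tested.

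*DUSP5*, a nuclear phosphatase specific for ERK (chromosome 10, 110497907 to 110511533, plus strand), was a low gene with 96 counts in BT-16 before treatment and 132 after it, while CHLA-266 had 54 and 204. Its levels were 1.39 and 2.28 CPM in BT-16 and 0.877 and 3.93 CPM in CHLA-266, again without overlap between conditions. The log2 fold change was 1.45 (SE 0.55, adjusted p = 0.0711 in edgeR). It passed the threshold in 5 of 9 alternatives. Without single libraries it passed in 1 of 4 fits, without treated BT-16 cells (1.79, adjusted p = 0.0325), while it was 1.02 without treated CHLA-266 cells (0.364) and 1.16 without untreated CHLA-266 cells (0.208). Per cell line, the log2 ratio came to 0.71 (0.32 to 1.11) for BT-16 and 2.15 (1.72 to 2.62) for CHLA-266.

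*DUSP6*, the cytoplasmic phosphatase specific for ERK (chromosome 12, 89347235 to 89352501, minus strand), had 2261 and then 1032 counts in BT-16, with 1207 and 956 for CHLA-266 in the same order. The 32.8 CPM of untreated BT-16 cells stood apart from 17.9 CPM in treated BT-16 cells and from 19.6 and 18.4 CPM in untreated and treated CHLA-266 cells. Conditions did not overlap, but treated and untreated CHLA-266 cells lay close together. Over both lines, the log2 fold change was -0.53 (SE 0.26, adjusted p = 0.144 in edgeR). The value rested on the untreated libraries: it was -0.11 without untreated BT-16 cells (adjusted p = 0.785) and -0.85 without untreated CHLA-266 cells, where it passed the threshold (0.0438). Per cell line, the log2 ratio came to -0.88 (-0.98 to -0.77) for BT-16 and -0.09 (-0.22 to 0.03) for CHLA-266, where it was 0.07 with library totals alone and 0.21 with upper-quartile factors. A long noncoding RNA on the opposite strand shares 1105 exon bases, or 28.6% of the exon of *DUSP6*, and the strand setting of the counting is not given in the sources used here, so reads from both cannot be told apart.

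*DUSP10*, a phosphatase of p38 and JNK (chromosome 1, 221701424 to 221742089, minus strand), was barely counted, with 18 counts before and 49 after treatment in BT-16, against 3 and 12 in CHLA-266. Treated CHLA-266 cells (0.231 CPM) were below untreated BT-16 cells (0.261 CPM), so the conditions overlapped. The log2 fold change was 1.78 (SE 1.36, adjusted p = 0.324), and the log2 ratio came to 1.67 (0.89 to 2.57) for BT-16 and 2.08 (0.35 to 4.71) for CHLA-266. Except in untreated BT-16 cells it lay below the 95th percentile of olfactory receptor genes, and its low counts left the fold change imprecise.

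*SPRY4*, a Sprouty inhibitor of receptor signaling to RAS and RAF (chromosome 5, 142310427 to 142326455, minus strand), had 12990 counts in BT-16 before treatment and 23207 after it, while CHLA-266 had 10167 and 20830. The levels were 188 and 165 CPM in the untreated libraries and 401 CPM in both treated libraries. Treatment was associated with a log2 fold change of 1.18 (SE 0.16, adjusted p = 0.0011 in edgeR). Per cell line, the log2 ratio came to 1.09 for BT-16 and 1.28 for CHLA-266, and the treated libraries stood above both untreated ones.

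*SPRY2*, the Sprouty gene that was most abundant before treatment (chromosome 13, 80335976 to 80341126, minus strand), had 16603 and then 10009 counts in BT-16, with 15916 and 9159 for CHLA-266 in the same order. Both treated libraries (173 and 176 CPM) were below both untreated ones (241 and 259 CPM). The log2 fold change was -0.51 (SE 0.16, adjusted p = 0.0328 in edgeR), or -0.75 relative to the median of all genes, and the log2 ratios were -0.48 and -0.55. The call depended on the scaling: the log2 fold change was -0.17 (adjusted p = 0.394) with upper-quartile factors and -0.29 (0.153) with library totals, and without any single library the adjusted p in edgeR ranged from 0.0690 to 0.150.

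*SPRY1* (chromosome 4, 123396795 to 123403760, plus strand) is a Sprouty inhibitor of growth factor signaling known from kidney development. It had 51.2 CPM before and 37.4 after treatment in BT-16, against 66.8 and 53.6 CPM in CHLA-266. The treated library was the lower one within each cell line (log2 ratios -0.45 and -0.32), yet treated CHLA-266 cells were above untreated BT-16 cells. The log2 fold change of -0.38 (SE 0.22) did not pass the threshold (adjusted p = 0.206 in edgeR, and 0.0510 with the block). Without single libraries it ranged from -0.14 without treated BT-16 cells (adjusted p = 0.680) to -0.65 without treated CHLA-266 cells, where it passed the threshold (0.0285), and it was -0.17 without untreated CHLA-266 cells (0.656).

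*SPRED2* (chromosome 2, 65310851 to 65432637, minus strand) had 3988 counts in BT-16 before treatment and 7281 after it, while CHLA-266 had 3847 and 5948, or 57.8 and 126 CPM and 62.5 and 114 CPM. Its log2 fold change was 1.00 (SE 0.16, adjusted p = 0.00207 in edgeR), with log2 ratios of 1.12 in BT-16 and 0.87 in CHLA-266 cells. *SPRED1*, the SPRED gene mutated in Legius syndrome (chromosome 15, 38252836 to 38357249, plus strand), had 35.1 and 51.8 CPM in BT-16 and 40.8 and 58.7 CPM in CHLA-266 cells. A log2 fold change of 0.54 was fitted (SE 0.17, adjusted p = 0.0392 in edgeR), with log2 ratios of 0.56 and 0.53, and for both genes the treated libraries were above both untreated ones. The *SPRED1* call was lost without untreated BT-16 cells (adjusted p = 0.187), untreated CHLA-266 cells (0.0732), or treated CHLA-266 cells (0.107).

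**Figure D2:**
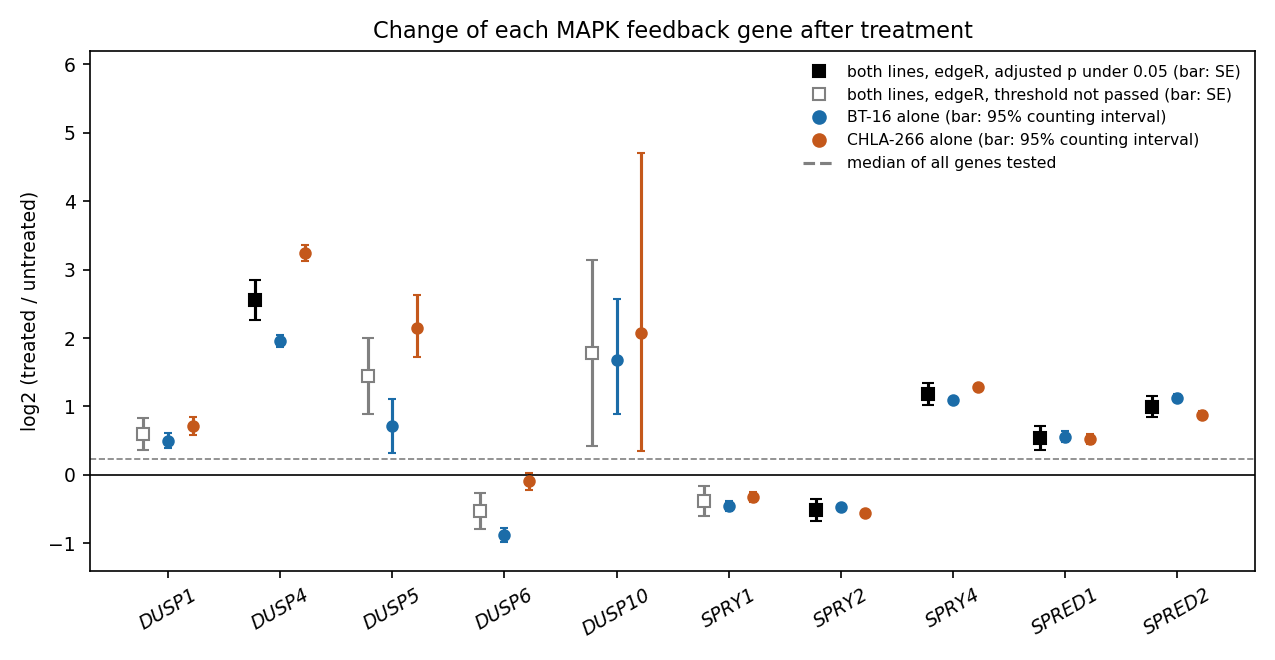
Log2 change of each feedback gene, with squares for the edgeR fold change over both cell lines (bars, SE) and circles for each cell line alone (bars, 95% counting interval); the dashed line is the median of all genes tested. Black squares mark the 5 genes that passed the threshold. *DUSP4*, *DUSP5*, and *DUSP6* show the widest gaps between the cell lines, with wider intervals for *DUSP5* than for *DUSP4* and *DUSP6*.

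Across the 10 genes, the treated libraries were both above the untreated ones for 6 genes and both below for 2 (*DUSP6* and *SPRY2*), while the conditions overlapped for *DUSP10* and *SPRY1*. Of all genes tested, 40.2% were above and 32.3% below in this sense. *SPRY4*, *SPRED2*, and *DUSP4* passed the threshold under each of the 9 other models, scalings, and filters and without any single library.

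**Figure D3:**
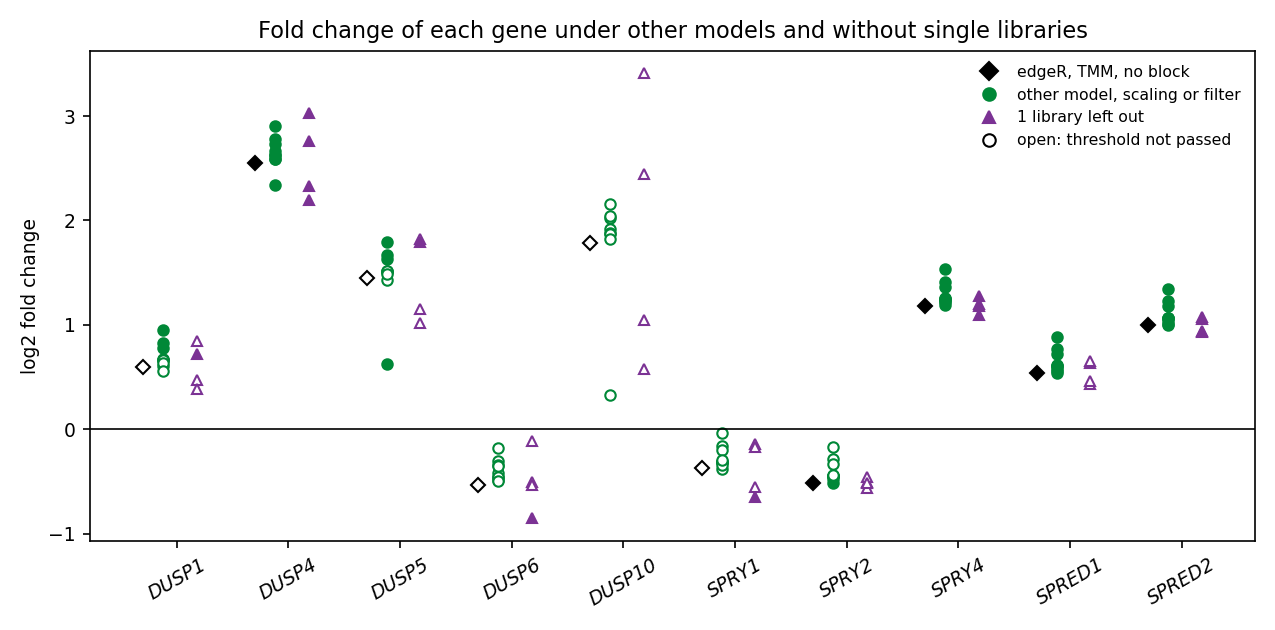
Log2 fold change of each feedback gene in the edgeR fit (diamonds), under 9 other models, scalings, or filters (circles; 8 for *DUSP10*), and without 1 library each (triangles), with open symbols where the adjusted p-value was not under 0.05. No gene crosses 0, and *DUSP4*, *SPRY4*, and *SPRED2* have filled symbols throughout.

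Levels of different genes were compared per kilobase of exon. *SPRY2* was the highest of the 10 genes in untreated BT-16 and CHLA-266 cells (74.9 and 80.5 CPM per kilobase), ahead of *SPRY4* (28.7 and 25.2). In treated cells *SPRY4* was highest (61.2 and 61.1 CPM per kilobase), with *SPRY2* next (53.9 and 54.9). The ratio of *SPRY4* to *SPRY2* in a library does not depend on the scaling between libraries, and it went from 0.383 to 1.14 in BT-16 cells and from 0.313 to 1.11 in CHLA-266 cells, which is a 2.96-fold and a 3.56-fold difference.

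The ratio of *DUSP4* to *DUSP6* per kilobase went from 0.307 to 2.19 in BT-16 cells and from 0.288 to 2.90 in CHLA-266 cells. *DUSP4* went from rank 8 of the 10 genes in both lines to rank 5 in BT-16 and rank 4 in CHLA-266 cells, and *DUSP6* from ranks 6 and 7 to rank 8 in both. *DUSP5* and *DUSP10* were at ranks 9 and 10 in every library. These orders have no test, since each library gives 1 value per gene.

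The summed level of the 3 Sprouty genes was 117 and 123 CPM per kilobase in untreated and 125 and 130 in treated BT-16 and CHLA-266 cells. That of the 2 SPRED genes was 15.0 and 16.6 before and 29.6 and 28.4 after treatment, and that of the 5 phosphatases was 21.2 and 13.8 before and 29.4 and 31.6 after. *SPRY2* made up 49.0% and 52.6% of the summed level of the 10 genes in untreated cells and 29.4% and 29.0% in treated cells, while *SPRY4* made up 18.8% and 16.5% before and 33.4% and 32.3% after.

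**Figure D4:**
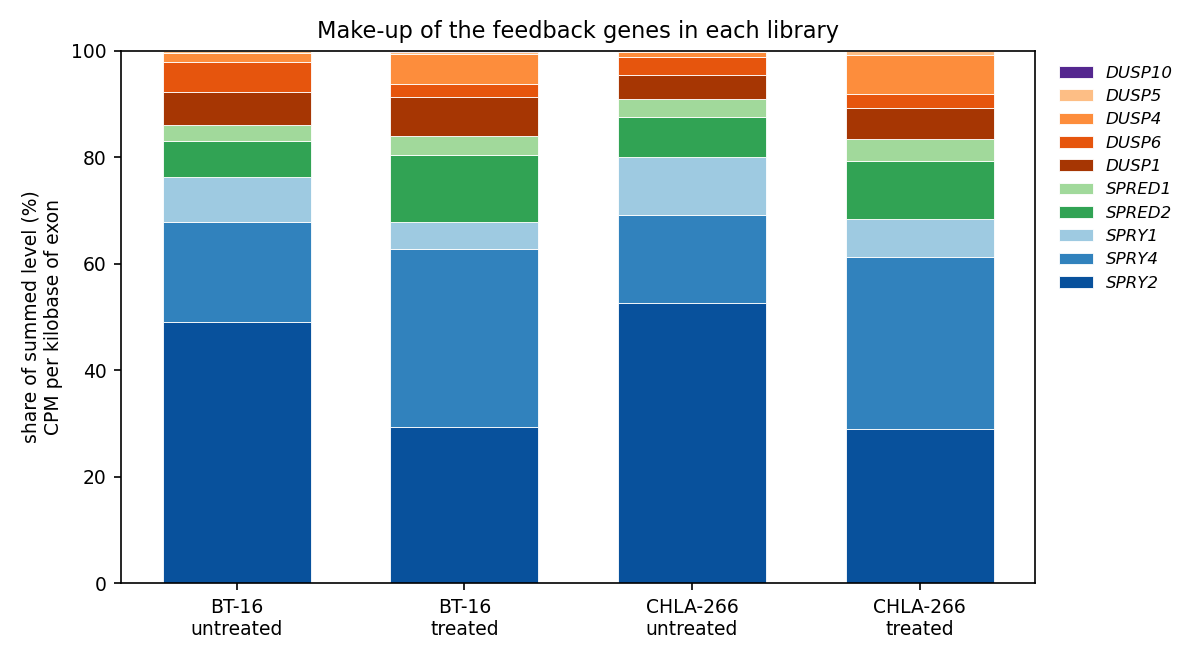
Share of each gene in the summed level of the 10 feedback genes (CPM per kilobase of exon, in percent) in each of the 4 libraries, as stacked bars. The share of *SPRY2* is 49.0% and 52.6% in the untreated and 29.4% and 29.0% in the treated libraries, and the share of *SPRY4* is larger in both treated libraries.

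Genes that are commonly switched on by ERK did not move in 1 direction. Of 12 such genes, 5 rose, 2 fell, and 5 did not pass the threshold, against 16.1% up and 19.1% down of all genes tested. The median log2 fold change of the 12 was 0.39. With upper-quartile factors 7 rose and 1 fell, and without untreated or treated BT-16 cells 3 rose while 1 and 2 fell. *EGR1*, an immediate-early transcription factor, fell from 164 to 17.7 CPM in BT-16 and from 79.0 to 10.3 CPM in CHLA-266 cells (log2 fold change -3.12, SE 0.37, adjusted p = 0.000552 in edgeR). The transcription factor *MYC* fell from 207 to 118 CPM and from 187 to 144 CPM. The *MYC* call was lost with upper-quartile factors, library totals, at least 10 counts in every library, or limma on VST values.

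*CCND1*, the cyclin that drives entry into the cell cycle, rose from 123 to 214 CPM in BT-16 and from 134 to 344 CPM in CHLA-266 cells (log2 fold change 1.12, SE 0.23, adjusted p = 0.00698 in edgeR). *PHLDA1* (2.22), the anti-apoptotic early-response gene *IER3* (0.87), the ETS factor *ETV5* (0.59), and the ephrin receptor *EPHA4* (3.51) rose as well. *EPHA4* was counted 1 time in untreated and 96 times in treated BT-16 cells (log2 ratio 6.26, 4.33 to 12.2) and lay below the 95th percentile of olfactory receptor genes in all 4 libraries. The log2 fold changes of the 5 genes that did not pass were 0.52 for the AP-1 subunit *FOS*, -0.15 for the AP-1 subunit *FOSL1*, 0.26 for *ETV1*, -0.45 for *ETV4*, and -0.28 for the ephrin receptor *EPHA2*. With the block *FOS* (adjusted p = 0.0350) and *ETV4* (0.0130) passed the threshold, in opposite directions.

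Of 17 genes of the cascade from adaptor to ERK, 4 rose, 4 fell, and 9 did not pass, with a median of -0.04. Of all genes tested, 16.1% rose and 19.1% fell. The balance depended on the scaling, as it did over all 18066 genes (4361 rose and 1895 fell with upper-quartile factors, 3678 and 2353 with library totals). With upper-quartile factors 6 of the 17 rose and 0 fell in edgeR (0 also at an unadjusted p-value under 0.05). With library totals and with at least 10 counts in every library, 4 of the 17 rose and 1 fell. Without untreated BT-16 cells 3 rose and 1 fell, without treated BT-16 cells 4 and 2, and without untreated CHLA-266 cells 2 and 2. *KSR1*, a scaffold that holds RAF, MEK, and ERK together, had the highest log2 fold change among those called (2.41, SE 0.16), from 18.3 and 17.3 CPM in untreated to 96.7 and 92.0 CPM in treated BT-16 and CHLA-266 cells. *NRAS*, a RAS GTPase, had the lowest (-0.67, SE 0.15), from 126 and 123 to 77.9 and 78.1 CPM, and it did not pass with upper-quartile factors (-0.33, adjusted p = 0.110). *MAP2K2* (MEK2), *SHC1*, and *GAB1* rose, and *HRAS* was among those that fell.

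Of 11 other regulators of RAS and ERK signaling, most of them brakes, 4 rose, 0 fell, and 7 did not pass in edgeR. Their median was 0.31. Of all genes tested, 16.1% rose and 19.1% fell. At an unadjusted p-value under 0.05 there was 1 lower gene among the 11, the ubiquitin ligase *CBL* (log2 fold change -0.40). It passed the threshold with the block (adjusted p = 0.0339 in edgeR). *ERRFI1*, a feedback inhibitor of the EGF receptor, had the highest log2 fold change among those called (1.25, SE 0.40), and *RASA2*, a RAS GTPase-activating protein, the lowest (0.70, SE 0.19). *IL17RD* (also called SEF) and *TESK1* were the others, and *TESK1* is not itself a brake. Without untreated BT-16 cells 1 of the 11 rose, and without untreated CHLA-266 cells 2 did. Of 12 kinases of the JNK and p38 branches, which DUSP1 and DUSP10 act on, 1 rose, 3 fell, and 8 did not pass, with a median of -0.28. *MAPK10* (JNK3) rose from 0.362 and 0.390 CPM to 3.58 and 1.58 CPM, and stood below the 95th percentile of olfactory receptor genes in all 4 libraries; without treated BT-16 cells it did not pass (adjusted p = 0.133). *MAPK9* (JNK2) fell from 75.0 and 79.6 to 40.0 and 42.0 CPM, and passed the threshold in all 9 alternatives and without each library. The p38 kinases *MAPK12* (-0.70) and *MAPK14* (-0.54) fell in the edgeR test, but neither passed with upper-quartile factors, with library totals, with at least 10 counts in every library, with limma on VST values, or without untreated BT-16, untreated CHLA-266, or treated CHLA-266 cells, so that 1 gene of the list fell in each of these.

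**Figure D5:**
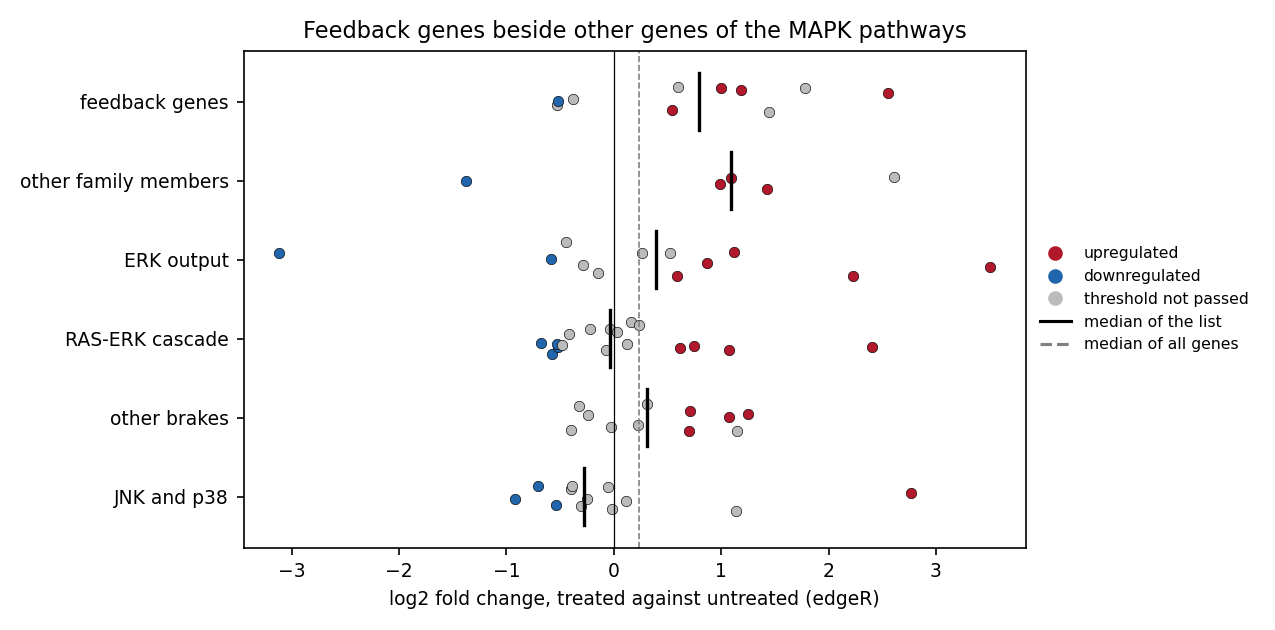
Log2 fold changes (edgeR) of the feedback genes and of 5 other lists of MAPK pathway genes, with a point per gene placed at random height within its row, colored by call, a black line for the median of each list, and a dashed line for the median of all genes. The medians range from -0.28 for the JNK and p38 kinases to 1.09 for other members of the 3 families, against 0.80 for the feedback genes.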

How the data were processed

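The 4 libraries were made from 10 ng of RNA with the SMART-Seq Stranded kit. Per the labels and methods, reads were converted with bcl2fastq 2.20, trimmed with Skewer, aligned to hg38 with STAR, and counted per gene, and genes of the sex chromosomes were removed. The estimated counts deposited by the authors carry no normalization. Rounding changed 5 values in 2 genes. Deposited log2 values came from the variance-stabilizing transformation (VST) of DESeq2 and served as an alternative. How read pairs were counted is not given in the sources used here, so counting intervals may be too narrow.

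The 18066 genes with any count were tested with edgeR 4.0.16 (quasi-likelihood, TMM) in R 4.3.3, and p-values were adjusted over all of them. SEs are the log2 fold change divided by the root of F. Within-line log2 ratios used 0.5 added counts and Clopper-Pearson 95% intervals. The libraries are paired by cell line, and the deviations of the libraries of a line correlated with 0.263 over 12620 genes. Exon lengths and overlaps came from GENCODE, and promoter letters from RefSeq. Alternatives were a block for the cell line, DESeq2 1.42.0 without this block and with it, other scalings and filters, limma 3.58.1 on VST values, a threshold on the fold change, and each library left out. Simulated counts with known changes were used to test the scripts.

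The 10 genes and all lists were chosen with earlier results of these data known. All 10 genes and the ERK output list are named whatever their result. Of other lists, the called genes with the highest and lowest log2 fold change are named by rule, and further called members were named after their values were seen. Single values of some listed genes are not reported here.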

Additional observations from a re-analysis of the deposited data

How the results depend on the processing

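With 2 libraries per condition, results near the threshold depended on single choices. The fold changes of the 10 genes over both lines kept their direction under every alternative run. Of 89 comparisons of a gene with another model, scaling, or filter, 74 stayed on the same side of the threshold, 11 passed it newly, and 4 no longer passed; of 40 without 1 library, these numbers were 29, 4, and 7, and there the lone library of a condition is assumed to vary like the others. Of 100 alternative values of the ratios within a cell line, 40 moved beyond the counting interval, all of them under another scaling. With 5 counts added or with the counts halved every value stayed inside, and such changes leave most of these ratios nearly the same. The ratio of *DUSP6* in CHLA-266 cells, -0.09, became 0.07 with library totals and 0.21 with upper-quartile factors. The number of downregulated genes among the 10, which was 1, became 0 with upper-quartile factors, with library totals, with at least 10 counts in every library, with limma on VST values, and with an absolute log2 fold change of at least 1. At an unadjusted p-value under 0.05 the first 3 of these settings gave 0 in edgeR and limma gave 1, *SPRY2*. It ranged from 0 to 1 without single libraries: without untreated or treated BT-16 cells it was 0 (1 at an unadjusted p-value under 0.05), without untreated CHLA-266 cells the gene called was *DUSP6* (adjusted p = 0.0438 in edgeR), and without treated CHLA-266 cells it was *SPRY1* (0.0285). The number of upregulated genes was 2 with an absolute log2 fold change of at least 1 (*DUSP4* and *SPRY4*), and 6 in DESeq2 without a block, with upper-quartile factors, with library totals, and with at least 10 counts, where *DUSP1* and *DUSP5* were added. Over all genes, 3454 were downregulated, against 1895 with upper-quartile factors and 1721 with the threshold on the fold change. Upregulated genes made up 45.7% of all calls, 61.0% with library totals, and 69.7% with upper-quartile factors, and the median log2 fold change of all genes was 0.24, 0.46, and 0.59 in these fits. With at least 10 counts in every library, that median was 0.005. In edgeR the block changed no call among the 10 genes other than *DUSP1*. In DESeq2 it changed that of *DUSP5*, which passed without the block (adjusted p = 0.0381) and not with it (0.0939). Halving the counts widened the interval of *DUSP10* in CHLA-266 cells to -0.45 to 6.30.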

Other observations

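Of 7 further members of the DUSP, Sprouty, and SPRED families, 5 were analysed. Against 16.1% up and 19.1% down of all genes tested, 3 of these 5 rose and 1 fell. The median log2 fold change of the 5 was 1.09. *SPRED3* had the highest log2 fold change among those called (1.43, SE 0.23), from 14.7 and 12.1 CPM in untreated to 30.1 and 42.1 CPM in treated BT-16 and CHLA-266 cells. With it, each of the 3 SPRED genes rose. *DUSP16*, a phosphatase of JNK and p38, rose from 61.8 and 66.6 to 120 and 135 CPM, and *DUSP8*, another phosphatase of this branch, rose from 5.90 and 3.74 to 8.86 and 11.7 CPM. *DUSP7*, an ERK-specific phosphatase closely related to *DUSP6*, had the lowest log2 fold change (-1.38, SE 0.29, adjusted p = 0.00789 in edgeR), from 42.1 and 35.7 to 19.4 and 10.4 CPM. *DUSP2* was counted 4 times in untreated and 22 times in treated BT-16 cells, was at 0 in CHLA-266 cells, and did not pass the threshold. *DUSP9* and *SPRY3* were not analysed here.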
